A study of Homo sapiens with 9 samples.

Results

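The 10 genes of the thiol and antioxidant response controlled by the transcription factor NRF2 that are described here are NFE2L2, KEAP1, NQO1, HMOX1, GCLC, GCLM, TXNRD1, SRXN1, SLC7A11 and OSGIN1. They were picked by gene name, with earlier results of these data known. The shares over all genes given beside their counts are therefore a background and no test of the set. Each had 1 entry among the 36385 genes of the deposited table, and all 10 passed the filter on low counts in each of the 3 comparisons. RNA was sequenced from MG-63 cells, which derive from a human osteosarcoma and often stand in for osteoblasts, grown on 3 metal surfaces with 3 libraries each. The surfaces were boronized Ti6Al4V with HA (called HA coating here; the labels do not spell out HA), Ti6Al4V with TiB2, which is titanium diboride by its formula (called TiB2), and plain Ti6Al4V, an alloy of titanium, aluminium and vanadium (called bare alloy). Cells on every surface had 7 days in the same induction medium. Its additives, which the bare alloy cells received too, were 100 nM dexamethasone, 50 µg/mL ascorbic acid and 10 mM beta-glycerophosphate. The labels put all 9 libraries in a single batch, say that the TiB2 libraries did not enter the submitters' final analysis, and do not tell whether the libraries of a surface were separate cultures; every p-value here is therefore about how far these libraries spread, technical spread included.

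NRF2, encoded by NFE2L2, is a transcription factor that binds DNA together with a small MAF protein at antioxidant response elements. In unstressed cells KEAP1 holds NRF2 and directs it to the proteasome; when reactive thiols of KEAP1 are modified by oxidants or electrophiles, NRF2 escapes this degradation, which acts on the protein and need not show in the level of its RNA. Its known targets make glutathione, feed cystine into the cell, reduce thioredoxin and peroxiredoxins, reduce quinones and break down haem.

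Promoter windows of 8 of the 10 genes were in the RefSeq set used here (GRCh38.p14; 250 bases before each annotated start and 50 from it), in 11 windows, and the genes without one were HMOX1 and SLC7A11. The core letters of the antioxidant response element, TGACNNNGC, were searched on both strands. They occurred in 4 of the 11 windows (3 of 8 genes) against 13.3% of all 35116 windows and 16.1% of 27305 genes. The related letters TGANTCAGC, which also hold an AP-1 type core, occurred in 1 of the 11 windows and in 1.36% of all windows. All 7 matches are shown, since they are the stretches of these promoters in which the letters of the pathway's element occur. Each is written along its gene, with 10 bases on either side, and capitals mark the match (TGANTCAGC in OSGIN1 and TGACNNNGC in the others).
GCLM, chr1:93909446-93909474, minus strand, 34 to 26 bases before the start, match on the opposite strand: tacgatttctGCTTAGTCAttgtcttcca
TXNRD1, first start, chr12:104215670-104215698, plus strand, 99 to 91 bases before the start, same strand: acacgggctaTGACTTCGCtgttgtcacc
TXNRD1, first start, chr12:104215761-104215789, plus strand, at the start itself, opposite strand: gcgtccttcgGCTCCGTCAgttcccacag
TXNRD1, second start, chr12:104286920-104286948, plus strand, 102 to 94 bases before the start, opposite strand: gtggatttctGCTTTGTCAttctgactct
OSGIN1, chr16:83953131-83953159, plus strand, 99 to 91 bases before the start, opposite strand: acgggcccctGCTGACTCAcgcttatgaa
KEAP1, second start, chr19:10502807-10502835, minus strand, 54 to 46 bases before the start, same strand: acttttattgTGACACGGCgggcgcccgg
KEAP1, second start, chr19:10502784-10502812, minus strand, 31 to 23 bases before the start, opposite strand: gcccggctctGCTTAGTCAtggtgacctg
These are matches of letters and not measured binding sites, and windows without a match (NFE2L2, GCLC, NQO1, SRXN1) say nothing about binding outside them.

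The total count per library ran from 58464306 to 72542556. Bare alloy replicate 1 stood apart from the other bare alloy libraries. Genes linked to ribosomal DNA took between 0.0832% and 0.197% of the counts of each coated library, and 6.48%, 1.07% and 0.617% of those of bare alloy replicates 1, 2 and 3. The libraries also split by 22 genes that reached 20 counts or more in each library of one side and stayed at 3 or fewer in each of the other. The 3 HA coating libraries and bare alloy replicate 1 made up one side, the 3 TiB2 libraries and bare alloy replicates 2 and 3 the other. The side with TiB2 had 17 of the 22, and CD3D, CD3E and LCK, which mark T cells, were 3 of them. These averaged 1.67, 2.17 and 2.06 CPM on TiB2, most of the T cell sum there. Other T cell markers did not split in this way: CD247 and PTPRC had 0.181 and 0.298 CPM on HA coating. TRAC had 0.06 CPM on HA coating and 0 CPM on TiB2 and bare alloy. The summed level of 8 T cell markers was 0.47 to 0.591 CPM (counts relative to the scaled library total) in HA coating libraries and 7.46 to 8.15 CPM in TiB2 libraries, and it was 0.439, 6.09 and 6.72 CPM in bare alloy replicates 1, 2 and 3. The difference between HA coating and TiB2 therefore cannot be told apart from this split, while each coating can also be set against the bare alloy libraries of its own side. The 9 mesenchymal markers, collagens and vimentin among them, summed to 7222 to 12755 CPM on HA coating, 10937 to 11747 CPM on TiB2 and 21151 to 23689 CPM on bare alloy. Not all of them were lower: on HA coating 5 of the 9 fell and THY1 rose (1.89-fold), and on TiB2 7 fell while THY1 (3.13-fold) and RUNX2 (1.59-fold) rose. The labels call the line epithelial-like, and the 8 epithelial markers summed to 148 to 219 CPM on HA coating, 199 to 211 CPM on TiB2 and 143 to 179.9 CPM on bare alloy. Most of this sum came from the keratins KRT8, with a mean of 80.5 CPM on HA coating, 114.5 CPM on TiB2 and 92.5 CPM on bare alloy, and KRT18, with a mean of 79.2, 79.5 and 58.6 CPM on the same surfaces; both rose on TiB2, while EPCAM and CDH1 stayed at or below 1.16 CPM. The part of these markers in the results on the 10 genes was not tested, and in bulk RNA fewer cells with a transcript and less of it per cell cannot be told apart.

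On HA coating, NQO1 and GCLM rose against bare alloy, NQO1 by 2.13-fold and GCLM by 1.51-fold, and none of the other 8 genes passed the threshold (edgeR's quasi-likelihood test, adjusted p under 0.05). All 10 genes had a positive log2 fold change, with a median of 0.59 against 0.02 over the 20117 genes tested. Passing upwards were 2 of 10 genes (NQO1, GCLM), against 5.02% of all genes tested, and 7 of 10 were higher at an unadjusted p under 0.05, against 14.1% of all genes. In 8 of the 10 genes, all except KEAP1 and HMOX1, every HA coating library lay above every bare alloy library, which held for 17% of all genes tested. DESeq2 called 6 of the 10 (9.32% of all genes tested were higher by it), the additional ones being NFE2L2, TXNRD1, SRXN1 and SLC7A11. The calls on HA coating changed with the libraries used, as did the share of all genes called. Without bare alloy replicate 1 the only member called was HMOX1, where 1.77% of all genes were higher. Without bare alloy replicate 2 or replicate 3 edgeR called no member, against 1.31% and 1.33% of all genes higher, and 5 had an unadjusted p under 0.05 in each case, against 19.2% and 17.5% of all genes in either direction. Without HA coating replicate 2 only NQO1 was called, against 2.68% of all genes, and without HA coating replicate 1 or replicate 3 there were 4 calls each, against 10.8% and 4.5%. GC content and length accounted for 22.6% and 13% of how gene levels in HA coating replicates 2 and 3 deviated from the mean, at most 7.29% in the other libraries, and with an offset for them 7 of the 10 were called, against 8.27% of all genes.

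On TiB2, 6 of the 10 genes rose against bare alloy. They were GCLM (2.75-fold), NQO1 (2.57-fold), SLC7A11 (2.33-fold), TXNRD1 (2.29-fold), SRXN1 (1.65-fold) and NFE2L2 (1.36-fold). The background was 12.9% of the 20152 genes tested, and no member fell (0 of 10 by edgeR, at an unadjusted p under 0.05 and by DESeq2). DESeq2 called OSGIN1 as well, 7 in all, against 14.7% of all genes higher by it. Every TiB2 library lay above every bare alloy library in the same 6 genes, against 20.7% of all genes tested. The median log2 fold change of the 10 genes was 0.72, against 0.00 over all genes tested. All 6 calls held when any of the 6 libraries was left out, where 9.06% to 10.1% of all genes were called higher. Without bare alloy replicate 1 there were 8, with HMOX1 and OSGIN1 added, against 10.1% of all genes. A single edgeR fit over all 9 libraries called 5, against 4.79% of all genes, and NFE2L2 was then not called (adjusted p = 0.0991).

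Between HA coating and TiB2, none of the 10 genes passed the threshold in edgeR, where 0.632% of the 20086 genes tested did. HMOX1, GCLM and TXNRD1 had an unadjusted p under 0.05, against 12% of all genes, and DESeq2 called these 3, HMOX1 higher and the other 2 lower on HA coating, against 2.49% of all genes in either direction. In the same 3 genes the libraries did not overlap. HMOX1 was higher in every HA coating library, against 8.69% of all genes tested, and GCLM and TXNRD1 were lower in every HA coating library, against 9.45%. The comparisons of HA coating and of TiB2 with bare alloy share the bare alloy libraries, so their values are given side by side below without a measure of likeness.

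**Figure D1:**
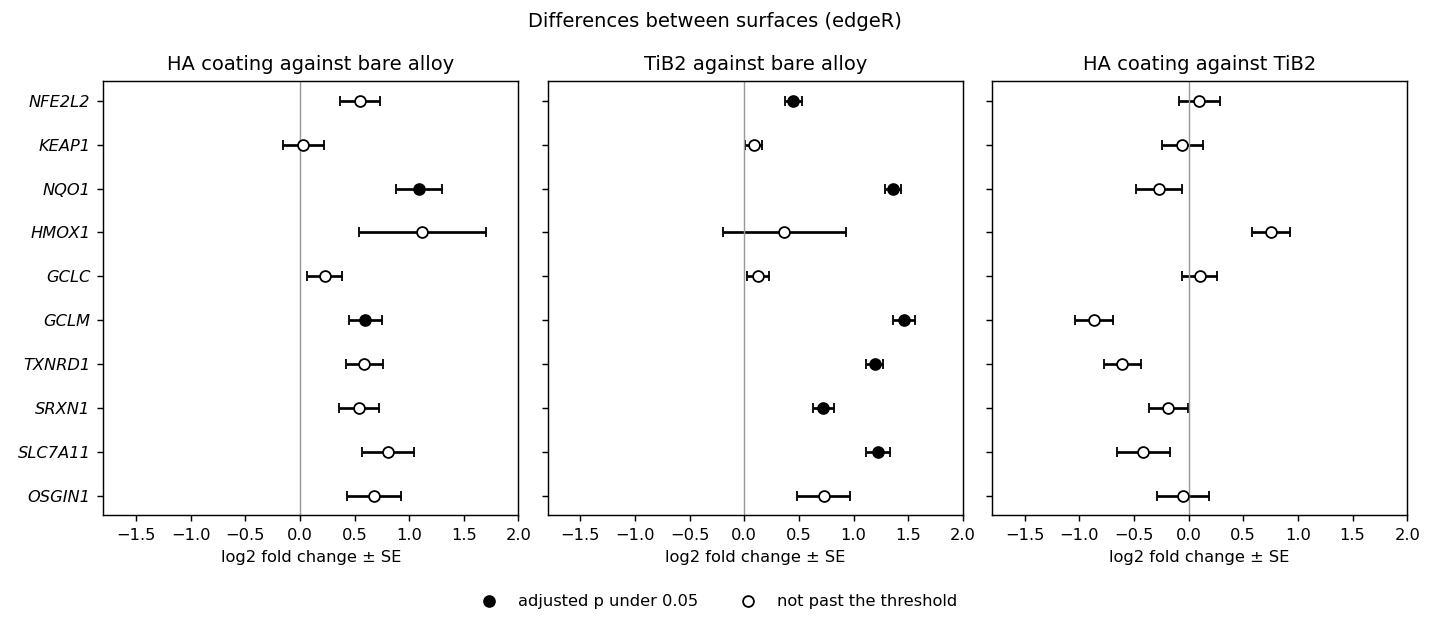
Log2 fold change (x axis) of each of the 10 genes (y axis) in the 3 comparisons, with bars of 1 standard error from edgeR on 3 libraries per surface; filled points had an adjusted p under 0.05. Filled points number 2 for HA coating against bare alloy, 6 for TiB2 against bare alloy and 0 for HA coating against TiB2.

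NFE2L2 (ENSG00000116044; chromosome 2, 177218667 to 177392697, minus strand in GRCh38, as are all positions from the deposited table), which encodes NRF2, had 253, 324 and 367 CPM on HA coating, 307, 272 and 297 CPM on TiB2 and 200.2, 229 and 214 CPM on bare alloy. All 6 coated libraries were above all 3 bare alloy libraries. HA coating against bare alloy gave a log2 fold change of 0.55 ± 0.18 (SE; edgeR adjusted p = 0.0901), and TiB2 against bare alloy gave 0.45 ± 0.08 (edgeR adjusted p = 0.00265). The larger of these did not pass, and its standard error was also the larger. The deposited span of NFE2L2 overlaps HNRNPA3 on the opposite strand, which had more counts than NFE2L2, and no source used here says whether reads were counted by strand.

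KEAP1 (ENSG00000079999; chromosome 19, 10486125 to 10503356, minus strand), the adaptor that marks NRF2 for degradation, had 189, 136 and 202 CPM on HA coating, 186, 190.1 and 169 CPM on TiB2 and 174, 158 and 183 CPM on bare alloy. The 3 surfaces overlapped. Its log2 fold change was 0.03 ± 0.19 for HA coating and 0.08 ± 0.08 for TiB2, each against bare alloy (edgeR adjusted p = 0.939 and 0.491). The ratio of NFE2L2 to KEAP1 in FPKM, a unit per length of transcript, was 0.440 ± 0.124 on HA coating, 0.385 ± 0.0397 on TiB2 and 0.300 ± 0.0402 on bare alloy (SD, n = 3 each; exact permutation p = 0.2 for either coating against bare alloy). With 3 libraries on each side an exact two-sided test cannot go below 0.1.

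**Figure D2:**
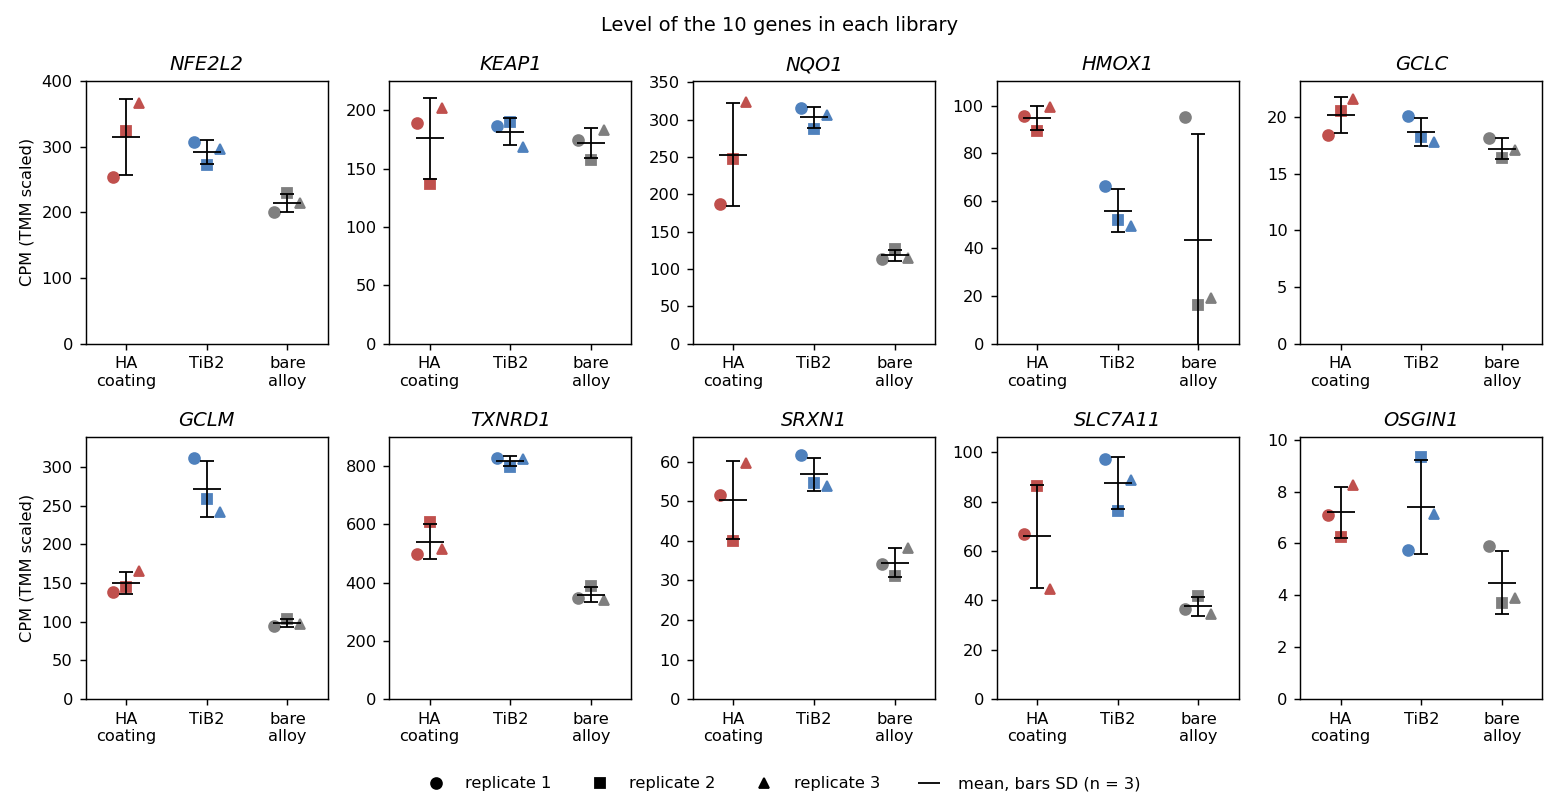
Level of each gene in CPM (y axis, starting at 0, with its own scale for each gene) in the 3 libraries of HA coating, TiB2 and bare alloy; symbols mark the replicate number, and horizontal lines with bars the mean and SD of 3 libraries. Bare alloy replicate 1 lies at 95.2 CPM for HMOX1, beside the HA coating libraries, and at 5.89 CPM for OSGIN1, where it is the highest bare alloy library.

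GCLC and GCLM encode the catalytic and the modifier subunit of glutamate-cysteine ligase, the rate-limiting enzyme of glutathione synthesis. GCLM (ENSG00000023909; chromosome 1, 93885199 to 93909456, minus strand) had 138, 146 and 166 CPM on HA coating, 312, 259 and 243 CPM on TiB2 and 94.8, 104 and 97.3 CPM on bare alloy. The surfaces did not overlap, with TiB2 highest and bare alloy lowest. The log2 fold change was 0.60 ± 0.15 for HA coating against bare alloy (edgeR adjusted p = 0.0399) and 1.46 ± 0.10 for TiB2 against bare alloy (edgeR adjusted p = 1.31e-05). Set directly against TiB2, HA coating differed by -0.86 ± 0.17 (edgeR adjusted p = 0.071).

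GCLC (ENSG00000001084; chromosome 6, 53497341 to 53616970, minus strand) had 18.5, 20.5 and 21.6 CPM on HA coating, 20.1, 18.3 and 17.8 CPM on TiB2 and 18.2, 16.4 and 17.1 CPM on bare alloy. The lowest HA coating library was just above the highest bare alloy library, and TiB2 overlapped both. Its log2 fold change was 0.23 ± 0.16 for HA coating and 0.12 ± 0.10 for TiB2, each against bare alloy (edgeR adjusted p = 0.393 and 0.414).

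The ratio of GCLM to GCLC in FPKM was 12, 11.3 and 12.2 on HA coating, 24.8, 22.6 and 21.7 on TiB2 and 8.32, 10.1 and 9.07 on bare alloy. No surface overlapped another, in the order TiB2, HA coating, bare alloy. Each of the 3 pairwise exact permutation tests gave the smallest p possible, 0.1 (adjusted p = 0.225 over 9 ratio tests), so none passed the threshold. The difference in log2 ratio was 0.37 for HA coating against bare alloy, 1.33 for TiB2 against bare alloy and -0.96 for HA coating against TiB2.

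SLC7A11 (ENSG00000151012; chromosome 4, 138164097 to 138242349, minus strand) encodes xCT, the cystine-importing chain of an exchanger. It had 67.1, 86.4 and 44.5 CPM on HA coating, 97.3, 76.2 and 89.0 CPM on TiB2 and 36.4, 41.9 and 34.5 CPM on bare alloy. All coated libraries were above all bare alloy libraries, with HA coating replicate 3 closest to them. Against bare alloy this made a log2 fold change of 0.81 ± 0.24 for HA coating (edgeR adjusted p = 0.0632) and of 1.22 ± 0.11 for TiB2 (edgeR adjusted p = 6.82e-05). Its partner chain SLC3A2 averaged 205.5 ± 44.8 CPM on HA coating, 235 ± 20.3 CPM on TiB2 and 181 ± 11.2 CPM on bare alloy (SD, n = 3 each). SLC3A2 rose by 1.30-fold on TiB2 (edgeR adjusted p = 0.00888) and did not pass on HA coating (edgeR adjusted p = 0.601). The ratio of SLC7A11 to SLC3A2 in FPKM was 0.230 ± 0.126 on HA coating, 0.248 ± 0.0343 on TiB2 and 0.138 ± 0.0205 on bare alloy (SD, n = 3 each). TiB2 did not overlap bare alloy in this ratio (exact permutation p = 0.1, the smallest possible), and HA coating overlapped both.

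**Figure D3:**
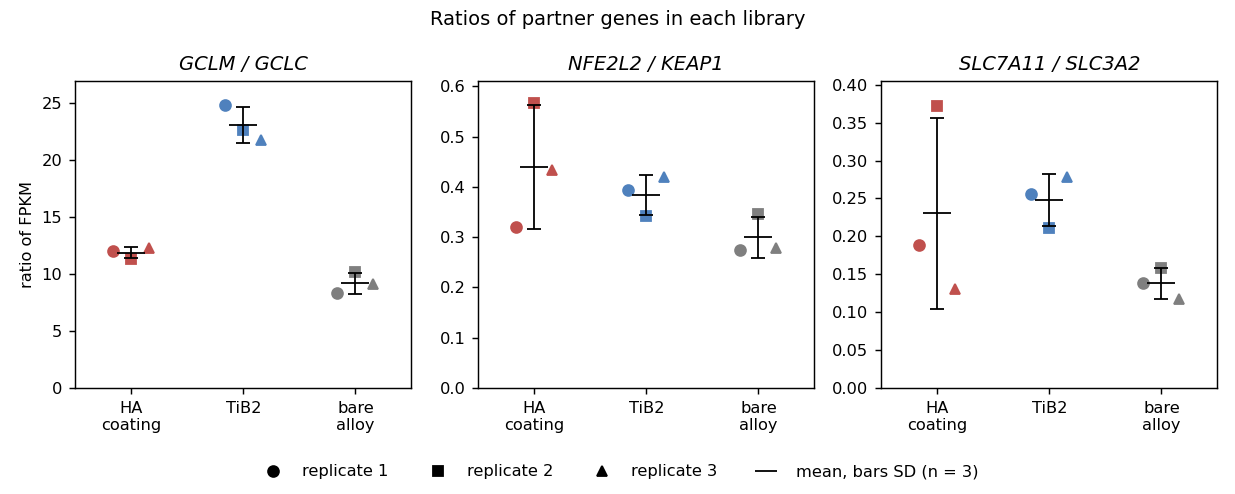
Ratio of FPKM values (y axis, starting at 0) of GCLM to GCLC, NFE2L2 to KEAP1 and SLC7A11 to SLC3A2 in each library of HA coating, TiB2 and bare alloy; lines and bars are the mean and SD of 3 libraries. The surfaces part without overlap in the ratio of GCLM to GCLC, which averaged 11.8 on HA coating, 23.1 on TiB2 and 9.17 on bare alloy.

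TXNRD1 (ENSG00000198431; chromosome 12, 104215779 to 104350307, plus strand), the cytosolic selenoenzyme that reduces thioredoxin with NADPH, had 497, 608 and 514 CPM on HA coating, 828, 798 and 824 CPM on TiB2 and 347, 388 and 339 CPM on bare alloy. The 3 surfaces did not overlap. The log2 fold change was 0.59 ± 0.17 for HA coating against bare alloy (edgeR adjusted p = 0.0599), 1.19 ± 0.08 for TiB2 against bare alloy (edgeR adjusted p = 1.21e-05) and -0.61 ± 0.17 for HA coating against TiB2 (edgeR adjusted p = 0.218). RPL18AP3, a ribosomal protein pseudogene within TXNRD1 on the same strand, had counts equal to 8.36% of those of TXNRD1.

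SRXN1 (ENSG00000271303; chromosome 20, 646615 to 653200, minus strand) encodes sulfiredoxin, which restores overoxidized peroxiredoxins. It had 51.5, 39.9 and 59.5 CPM on HA coating, 61.6, 54.7 and 53.9 CPM on TiB2 and 34.0, 31.0 and 38.2 CPM on bare alloy. HA coating replicate 2 was the lowest coated library, close to the highest bare alloy library, and no coated library overlapped bare alloy. In log2 fold change this was 0.54 ± 0.19 for HA coating (edgeR adjusted p = 0.0998) and 0.72 ± 0.10 for TiB2 (edgeR adjusted p = 0.000746), each against bare alloy.

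NQO1 (ENSG00000181019; chromosome 16, 69706996 to 69726584, minus strand), the NAD(P)H quinone reductase often used as a readout of NRF2, had 187, 247 and 324 CPM on HA coating, 316, 287 and 306 CPM on TiB2 and 113, 126 and 115 CPM on bare alloy. Every coated library was above every bare alloy library. Of the HA coating libraries, 2 were below every TiB2 library and 1 was above every TiB2 library. The log2 fold change was 1.09 ± 0.21 for HA coating (edgeR adjusted p = 0.0144) and 1.36 ± 0.07 for TiB2 (edgeR adjusted p = 4.07e-06), each against bare alloy. HA coating against TiB2 gave -0.27 ± 0.21 (edgeR adjusted p = 0.614). The call on HA coating was lost without any 1 of the 3 bare alloy libraries, where the log2 fold change stayed between 0.88 and 1.28 over the 6 left-out libraries and the adjusted p reached 0.0875.

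HMOX1 (ENSG00000100292; chromosome 22, 35380361 to 35394214, plus strand) encodes haem oxygenase 1, which opens haem to biliverdin, iron and carbon monoxide and is repressed by BACH1. It had 95.9, 89.4 and 99.5 CPM on HA coating, 66.4, 52.0 and 49.3 CPM on TiB2 and 95.2, 16.1 and 19.3 CPM on bare alloy. Bare alloy replicate 1 was as high as the HA coating libraries, and bare alloy replicates 2 and 3 were the lowest of all 9. Over all 3 bare alloy libraries the log2 fold change was 1.12 ± 0.58 for HA coating and 0.36 ± 0.56 for TiB2 (edgeR adjusted p = 0.251 and 0.694).

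Leaving out bare alloy replicate 1 changed HMOX1 more than any other member. The log2 fold change against bare alloy replicates 2 and 3 was 2.41 ± 0.23 for HA coating (edgeR adjusted p = 0.00192) and 1.65 ± 0.15 for TiB2 (edgeR adjusted p = 0.000126). On this fit 1.77% of all genes were called higher on HA coating. Within the library split described above, HA coating set against bare alloy replicate 1 alone gave 0.02 ± 0.40 (edgeR adjusted p = 0.996), with the lone bare alloy library assumed to vary like the HA coating libraries. TiB2 set against the bare alloy libraries of its own side gave the 1.65 ± 0.15 just named. In edgeR on all 9 libraries with the split as a term, HMOX1 was -0.00 ± 0.22 for HA coating against bare alloy and 1.66 ± 0.19 for TiB2 against bare alloy (adjusted p = 0.000859 for TiB2), an alternative added after the data had been seen. By construction the HA coating value again rests on bare alloy replicate 1 alone, and the TiB2 value on bare alloy replicates 2 and 3. The fit with this term therefore restates the values of each side and adds no separate evidence. With that term edgeR called 1.44% of all genes higher on HA coating and 2.67% higher on TiB2. None of the 10 genes was then called on HA coating (5 at an unadjusted p under 0.05, against 18.4% of all genes; NQO1 had an adjusted p = 0.0623), and 5 were called on TiB2, HMOX1 among them and NFE2L2 and SRXN1 no longer (edgeR adjusted p = 0.294 and 0.0672). The direct comparison of HA coating with TiB2, 0.75 ± 0.17 (edgeR adjusted p = 0.106), runs along the split.

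Of the other members, OSGIN1 also depended on bare alloy replicate 1: its log2 fold change on HA coating was 0.31 ± 0.43 against that library alone and 0.92 ± 0.26 against bare alloy replicates 2 and 3, and on TiB2 against the same pair it was 0.96 ± 0.23 (edgeR adjusted p = 0.0194). NQO1, SLC7A11, GCLM and TXNRD1 moved by less than their standard errors on HA coating. Against bare alloy replicate 1 alone, the log2 fold change on HA coating was 1.19 ± 0.47 for NQO1, 0.89 ± 0.47 for SLC7A11, 0.68 ± 0.43 for GCLM and 0.66 ± 0.44 for TXNRD1, with no member called by edgeR (1 at an unadjusted p under 0.05, against 9.45% of all genes), where 0.477% of all genes were called higher. Against bare alloy replicates 2 and 3 the values for HA coating were 1.06 ± 0.28, 0.78 ± 0.30, 0.57 ± 0.22 and 0.56 ± 0.23 in the same order of genes. For TiB2 against bare alloy replicates 2 and 3 they were 1.32 ± 0.09, 1.19 ± 0.13, 1.43 ± 0.12 and 1.17 ± 0.09, and all 4 genes passed.

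**Figure D4:**
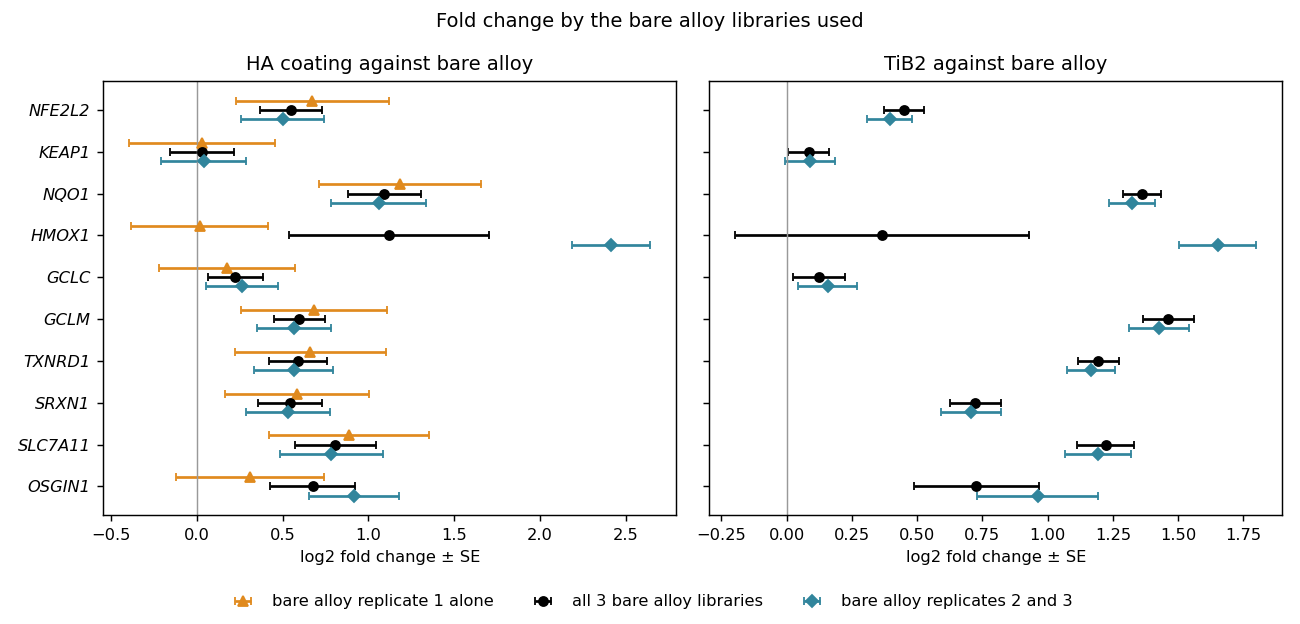
Log2 fold change with bars of 1 standard error (x axis) of each gene (y axis) for HA coating (left) and TiB2 (right) against bare alloy replicate 1 alone (HA coating panel), all 3 bare alloy libraries, and bare alloy replicates 2 and 3. For HA coating, HMOX1 is at 0.02, 1.12 and 2.41 in these 3 choices, while NQO1 stays between 1.06 and 1.19.

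OSGIN1 (ENSG00000140961; chromosome 16, 83931311 to 83966332, plus strand), an oxidative stress-induced growth inhibitor, had 7.11, 6.26 and 8.24 CPM on HA coating, 5.75, 9.34 and 7.15 CPM on TiB2 and 5.89, 3.71 and 3.89 CPM on bare alloy. HA coating did not overlap bare alloy and TiB2 did. Log2 fold changes were 0.68 ± 0.25 for HA coating (edgeR adjusted p = 0.117) and 0.73 ± 0.24 for TiB2 (edgeR adjusted p = 0.0533), each against bare alloy. Its deposited span overlaps MLYCD on the same strand, which had counts equal to 86.6% of those of OSGIN1, so its level is uncertain.

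On the FPKM scale, which allows levels of different genes to be set side by side, TXNRD1 and NQO1 were the most abundant of the 10 on both coatings. On HA coating NQO1 had 79.9 ± 16.8 FPKM and TXNRD1 76.5 ± 12.3 FPKM, and their libraries overlapped. On TiB2 TXNRD1 had 118 ± 1.43 FPKM and NQO1 98.9 ± 3.76 FPKM, without overlap. On bare alloy TXNRD1 had 50.0 ± 5.49 FPKM and KEAP1 45.0 ± 4.15 FPKM, which overlapped, and NQO1 came next with 37.2 ± 4.10 FPKM (SD, n = 3 each). KEAP1 followed these on both coatings, with 46.3 ± 7.31 FPKM on HA coating and 49.4 ± 3.16 FPKM on TiB2. SLC7A11, GCLC and OSGIN1 were the 3 lowest on every surface and in that order, and OSGIN1 had 1.22 ± 0.0882, 1.29 ± 0.33 and 0.744 ± 0.15 FPKM on HA coating, TiB2 and bare alloy. HMOX1 came after KEAP1 on HA coating (38.9 ± 1.61 FPKM, overlapping KEAP1) and after GCLM on TiB2 (23.5 ± 3.63 FPKM) and on bare alloy (16.9 ± 16.4 FPKM, overlapping GCLM and NFE2L2).

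Among 11375 named genes, those with the profile most like NQO1 over the 9 libraries were PIR, UGCG and MGST1. The root mean square difference of log2(CPM + 0.5), each gene centred on its own mean, was 0.0724 for PIR, 0.127 for UGCG and 0.136 for MGST1, where NQO1 itself ranged over 1.52. PIR, a nuclear iron-containing protein, had 22.3, 30.1 and 43.0 CPM on HA coating, 38.6, 33.1 and 36.1 CPM on TiB2 and 12, 14.5 and 14.0 CPM on bare alloy. Nearest to SLC7A11 were ZBTB21 (0.152), STEAP2, a metalloreductase (0.157), and PLD1, a phospholipase (0.174). HMOX1 had no neighbour as near: PNP, FATE1 and ZC3H11A differed from it by 0.477, 0.517 and 0.520.

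The 6 lists of other genes around the pathway each count genes that passed the same edgeR test against bare alloy, and all their genes had an entry in the table. Where a gene is given only to complete a short count it was named after its values had been seen. The list counts and medians carry no offset for GC content and length, which went with 22.6% and 13% of the deviation in HA coating replicates 2 and 3. The part of GC content and length in the list results was not tested. Of 19 partners and regulators of NRF2, 3 rose and 0 fell on HA coating (1 lower at an unadjusted p under 0.05, and 0 in DESeq2), and 8 rose and 1 fell on TiB2, with a median log2 fold change of 0.15 on each. Over all genes tested, 5.02% rose and 4.88% fell on HA coating, and 12.9% rose and 12.2% fell on TiB2. On HA coating 27.3% of all genes had an unadjusted p under 0.05 in either direction, and 14.1% were higher by that rule. DESeq2 called 17.7% there in either direction and 9.32% higher. These shares are the background for all 6 lists. MAFG, a small MAF partner of NRF2, had 93.8, 87.1 and 91.3 CPM on HA coating, 110.4, 129 and 124 CPM on TiB2 and 57.8, 52.4 and 61.6 CPM on bare alloy. All coated libraries were above bare alloy, and MAFG rose by 1.58-fold on HA coating (edgeR adjusted p = 0.0252) and by 2.12-fold on TiB2 (edgeR adjusted p = 3.82e-05). The other genes that rose on HA coating were PGAM5, a mitochondrial phosphatase that binds KEAP1, by 1.59-fold, and NFE2L3, a relative of NFE2L2 (log2 fold change 0.84). MAFF, another small MAF, rose by 1.71-fold on TiB2. BACH1, the repressor that competes for the same elements, averaged 115.5 ± 6.52 CPM on HA coating, 109.7 ± 14.9 CPM on TiB2 and 133 ± 7.08 CPM on bare alloy (SD, n = 3 each; edgeR adjusted p = 0.403 and 0.0806 for the coatings). All coated libraries were below all bare alloy libraries for BACH1, which held for 17.5% of all genes tested on HA coating and 21.5% on TiB2.

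Of 33 genes of glutathione use and handling, 5 rose and 0 fell on HA coating (median log2 fold change 0.35; 2 lower at an unadjusted p under 0.05, and 1 in DESeq2), and 10 rose and 3 fell on TiB2 (median 0.04). MGST1, a microsomal glutathione transferase, had 108, 136 and 182 CPM on HA coating, 144, 126 and 145 CPM on TiB2 and 62.1, 61.2 and 56.3 CPM on bare alloy. It rose on both coatings, by 2.36-fold on HA coating and 2.31-fold on TiB2. GLRX3, a glutaredoxin, and GGCT, an enzyme of glutathione breakdown, rose on HA coating by 1.97-fold and 1.96-fold, and the list's other calls there were GLO1, a glyoxalase (log2 fold change 0.94), and CHAC2, another enzyme of glutathione breakdown (1.19). The 3 genes that fell on TiB2 were GPX8 (-0.61), a peroxidase of the endoplasmic reticulum, and the glutathione transferases GSTA4 (-0.59) and GSTK1 (-0.36). GSR, which regenerates reduced glutathione, rose by 1.62-fold on TiB2 and had a log2 fold change of 0.58 ± 0.16 on HA coating (edgeR adjusted p = 0.0566).

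Of 22 genes of the thioredoxin and peroxiredoxin system, 3 rose and 1 fell on HA coating (median 0.36), and 4 rose and 4 fell on TiB2 (median 0.11). Thioredoxin itself, TXN, had 142, 199 and 320.5 CPM on HA coating, 146, 117 and 138 CPM on TiB2 and 105, 98.8 and 83.8 CPM on bare alloy. It rose on both coatings, by 2.29-fold on HA coating (edgeR adjusted p = 0.0295) and by 1.40-fold on TiB2 (edgeR adjusted p = 0.00908). On HA coating PRDX1, a peroxiredoxin, rose by 1.97-fold and MSRB1, a methionine sulfoxide reductase, by 1.77-fold; on TiB2 MSRB3, a related reductase, fell to 51.8 CPM, against 70.7 CPM on bare alloy. SESN3, a sestrin, fell on both coatings (log2 fold change -1.94 on HA coating and -2.05 on TiB2), and MSRA (-0.58) and TXNIP, an inhibitor of thioredoxin (-0.38), fell on TiB2. The 4 genes that rose on TiB2 were TXN, PRDX1, PRDX5 and PRDX6.

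Of 12 tested genes of cysteine supply, 0 rose and 1 fell on HA coating (median 0.08), and 3 rose and 1 fell on TiB2 (median 0.05). At an unadjusted p under 0.05, 0 were higher and 4 lower on HA coating, against 27.3% of all genes in either direction and 14.1% higher. DESeq2 called 0 higher and 1 lower there, against 17.7% of all genes in either direction and 9.32% higher. The gene that fell on both coatings was CBS, the first enzyme from homocysteine to cysteine, with 22.3 ± 5.02 CPM on HA coating, 22.8 ± 3.64 CPM on TiB2 and 39.0 ± 0.909 CPM on bare alloy (SD, n = 3 each; edgeR adjusted p = 0.0326 and 0.00138). On TiB2 the genes that rose were SLC3A2, MPST, a mercaptopyruvate sulfurtransferase (1.33-fold), and SLC7A8, an amino acid transporter (log2 fold change 0.97).

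Of 13 genes of haem breakdown and quinone reduction, 5 rose and 1 fell on HA coating (median 0.44), and 7 rose and 2 fell on TiB2 (median 0.25). CBR3, a carbonyl reductase, rose by 1.93-fold on HA coating and 1.96-fold on TiB2, and PIR rose by 2.34-fold and 2.66-fold. BLVRA, which turns the biliverdin made by HMOX1 into bilirubin, rose by 1.90-fold on HA coating, and CBR1 and UGDH completed the 5. EPHX1, the microsomal epoxide hydrolase, fell on both coatings (log2 fold change -0.83 on HA coating and -0.56 on TiB2), and CYB5R1 fell on TiB2 (-0.48). Of 11 tested genes that remove superoxide and peroxide, 2 rose and 1 fell on HA coating (median 0.30), and 4 rose and 1 fell on TiB2 (median -0.06). PRDX1 stands in this list and in the thioredoxin list. The gene that fell on both coatings was SELENOP, a selenium carrier, with 3.47 CPM on HA coating, 2.59 CPM on TiB2 and 27.8 CPM on bare alloy.

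The largest rise in the 6 lists on either coating was in SOD2, the mitochondrial superoxide dismutase, with 957, 974 and 1078 CPM on HA coating, 1518, 982 and 1354 CPM on TiB2 and 218, 232 and 214 CPM on bare alloy. SOD2 rose by 4.52-fold on HA coating (edgeR adjusted p = 0.000277) and by 5.82-fold on TiB2. FTH1, the ferritin heavy chain that stores iron, rose on TiB2 by 2.16-fold, and FTL, its light chain, had a log2 fold change of 0.57. FTH1 had 3474, 2681 and 3444 CPM on TiB2 and 1008, 1662 and 1780 CPM on bare alloy. On HA coating FTH1 did not pass, with a mean of 1529 CPM against 1484 CPM on bare alloy (edgeR adjusted p = 0.951).

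Without bare alloy replicate 1, counts added after the data had been seen, edgeR called 0, 1, 0, 0, 0 and 1 genes higher on HA coating in the lists in the order given, where the share of all genes called higher was 1.77%, against 5.02% with all 3 bare alloy libraries. On TiB2 the counts without that library were 8, 10, 5, 2, 5 and 4, where the share of all genes was 10.1%, against 12.9% with all 3. In HA coating against TiB2, edgeR called no gene of the 6 lists, against 0.632% of all genes tested. Between 1 and 5 genes of each list had an unadjusted p under 0.05, against 12% of all genes. DESeq2 called 1 gene each in 2 lists, against 2.49% of all genes in either direction.

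**Figure D5:**
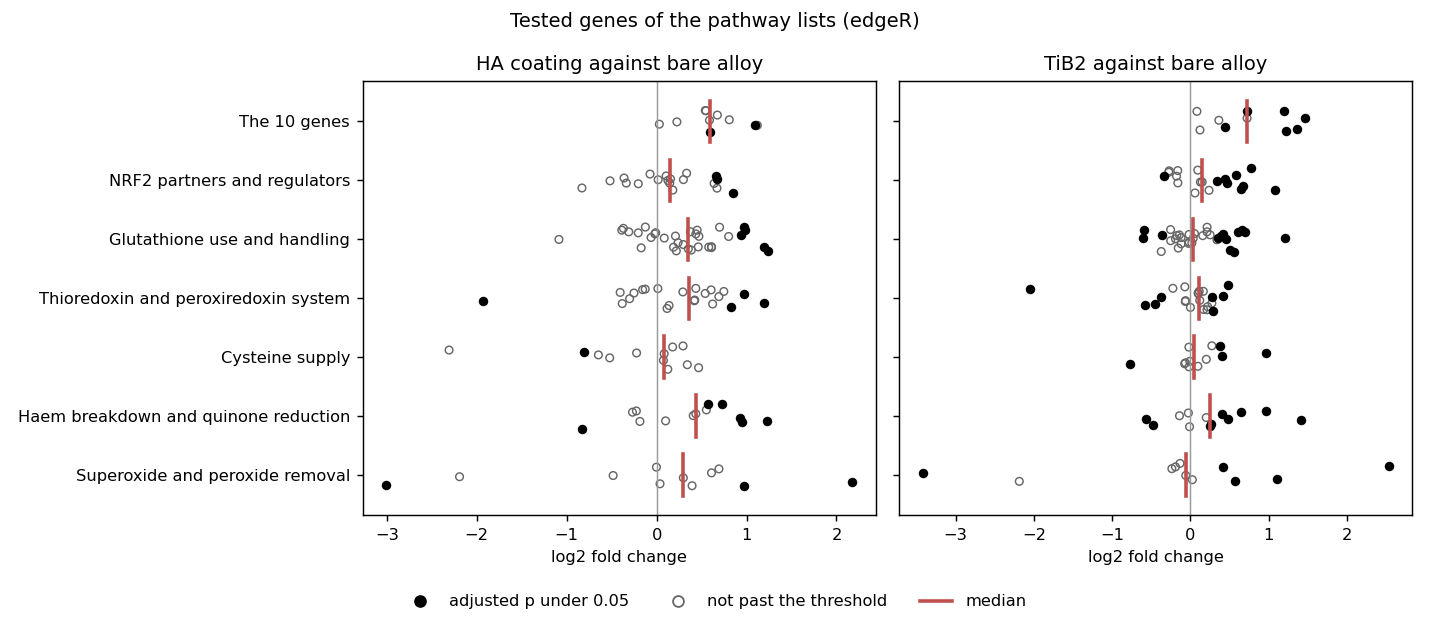
Log2 fold change (x axis) of every tested gene of the 10 and of the 6 lists (y axis) for HA coating and TiB2, each against bare alloy; filled points had an edgeR adjusted p under 0.05 and red lines are medians. The medians of the 10 genes are 0.59 on HA coating and 0.72 on TiB2, and those of the lists lie between 0.08 and 0.44 on HA coating and between -0.06 and 0.25 on TiB2.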

How the data were processed

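The authors deposited a single table with raw read counts per gene and FPKM (fragments scaled to transcript length and library depth) for each library. The submitters' processing notes name GRCh38, featureCounts 2.0.1, StringTie 2.1.4, HISAT2 2.2.1, cutadapt 2.10 and limma, without the role of each; no source used here states strand use or how multi-mapping reads were treated. Among deposited counts from 1 to 20, even values made up 55.5%. RNA was extracted with TRIzol and libraries were made with a NEBNext Ultra kit, per the labels' protocols.

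Groups came from the sample labels. Each comparison used its own 6 libraries, with filterByExpr and TMM scaling. The test was edgeR's quasi-likelihood test (edgeR 4.0.16, R 4.3.3), two-sided, Benjamini-Hochberg adjusted over all genes tested, threshold 0.05. It was also run on simulated counts that held no library split and no deviating bare alloy library. That run therefore does not bear on calls that depend on these. CPM are counts relative to the library total scaled by TMM over 9 libraries. Ratios of FPKM were compared by exact permutation on the log2 scale. Members and lists were chosen with earlier results of these data known. Named were all 10 members; per list the 3 (HA coating) and 2 (TiB2) largest absolute changes past the threshold with a mean FPKM of at least 5; SLC3A2, TXN, GSR, BACH1 and MAFG; and the 3 nearest profiles of NQO1, HMOX1 and SLC7A11, with a mean FPKM of at least 1. Alternatives were DESeq2 1.42.0, limma 3.58.1 on log2(FPKM + 1) or log2(FPKM + 0.1), other scalings and filters, a fit over 9 libraries, a replicate block, a GC and length offset and left-out libraries. Promoter windows are RefSeq's (GRCh38.p14), not the authors' files.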

Additional observations from a re-analysis of the deposited data

How the results depend on the processing

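For HA coating against bare alloy, 2 members were called. DESeq2 and the fit over 9 libraries called 6 each, the GC and length offset 7, no low-count filter 1, limma without a filter, bare alloy replicate 1 as the only bare library and the library split as a term 0 each (8, 1 and 5 at an unadjusted p under 0.05), and leaving out 1 library gave 0 to 4. Of all genes, 1990 were called there, against 1093 with no filter, 3562 in DESeq2, 554 in limma without a filter, 3518 over 9 libraries, 2986 with the offset, 286 with bare alloy replicate 1 only, 704 with the split and 598 to 4185 with 1 library left out. For TiB2 against bare alloy, 5059 genes were called, against 2873 in limma without a filter, 2132 over 9 libraries and 1173 with the split; the last 2 called 5 members each. For HA coating against TiB2, 0 members were called by edgeR (3 at an unadjusted p under 0.05); DESeq2 called 3, limma on log2(FPKM + 1), the fit over 9 libraries and the offset 1 each, and leaving out 1 library gave 0 to 2. Of all genes, 127 were called there, against 35, 501, 80, 63, 27, 67, 195 and 14 with no filter, DESeq2, limma with pseudocounts of 1 and 0.1, limma without a filter, 9 libraries, the replicate block and the split, and 49 to 1224 with 1 library left out. As ratios of counts, GCLM to GCLC was 7.43 on HA coating, 14.5 on TiB2 and 5.76 on bare alloy, NFE2L2 to KEAP1 was 1.84, 1.61 and 1.26, and SLC7A11 to SLC3A2 was 0.374 on TiB2 and 0.209 on bare alloy. Except where said otherwise, the cause was not tested.

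Signs turned in few cases. With 1 library left out, the log2 fold change of KEAP1 on HA coating against bare alloy was -0.0744 to 0.187, and that of HMOX1 on TiB2 against bare alloy -0.033 to 1.65. On HA coating against TiB2 the left-out libraries gave -0.0374 to 0.228 for NFE2L2, -0.176 to 0.0933 for KEAP1 and -0.213 to 0.149 for OSGIN1. With the offset KEAP1 was 0.0323 and OSGIN1 0.0851 there. With the split HMOX1 was -0.00405 on HA coating against bare alloy and -1.66 on HA coating against TiB2, where GCLC was -0.0085. Under that term HA coating against TiB2 is the direct difference less the gap between bare alloy replicate 1 and the other bare alloy libraries. Its values, and the count of all genes called there with the split, thus hang in part on that single library. They cannot be read as a difference between the coatings alone. Replicate numbers did not pair the libraries (correlations of -0.13 to 0.11 between same-numbered libraries). With the number as a replicate block, 1 member was called on HA coating against bare alloy (NQO1), against 3.17% of all genes higher. On TiB2 against bare alloy 6 were called, against 9.09% of all genes higher. Between the coatings 0 were called, against 0.971% of all genes in either direction. OSGIN1 had the lowest counts of the members, from 236 per library, and the part of depth in its calls was not tested.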
